A study of Mus musculus with 2 samples.

Results

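The insulin, IGF and FOXO signalling genes described here are Igf1, Insr, Igf1r, Irs1, Irs2, Pik3r1, Foxo1, Foxo3, Igfbp2 and Igfbp3, 10 of 21827 protein-coding genes. A peak belonged to one of them where its summit lay inside the gene, or where the nearest protein-coding start site within 100 kb of the summit was that gene's. By this rule they had 125 of the 43988 peaks in the optimal reproducible set, and 10 of 10 had at least 1 peak. The assignment is by position and is not a measured link between a peak and a gene. The peaks come from chromatin immunoprecipitation with sequencing (ChIP-seq) for EP300, a lysine acetyltransferase that transcription factors recruit to enhancers and promoters. The tissue was whole lung of newborn B6NCrl mice at postnatal day 0, in 1 group of 2 libraries, with no treatment or second genotype in the labels. Replicates 1 and 2 share their donor and biosample record in the labels, so differences between the libraries may be technical only. The labels give the sex as not collected. With 1 group there was no condition to compare, and all values below are descriptions without a test.

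Insulin and the insulin-like growth factors bind receptor tyrosine kinases, encoded by Insr and Igf1r, at the cell surface. The active receptor phosphorylates the adaptor proteins IRS1 and IRS2, which dock phosphoinositide 3-kinase through its regulatory subunit, the product of Pik3r1. The kinase AKT then phosphorylates FOXO1 and FOXO3, which leave the nucleus, so that FOXO target genes are transcribed mainly when insulin and growth factor signalling is low. IGF-binding proteins, among them those of Igfbp2 and Igfbp3, hold the growth factors outside the cell and regulate their access to the receptor. In the mouse, loss of Igf1r is lethal at birth with failure to breathe, and Igf1 contributes to the growth of the lung.

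The strongest peaks of these genes lay in introns or far from any protein-coding start site. The sequences under their summits are shown for the sites to which the results below return. Each window is the central 100 bp of a peak on the mm10 build, read 5′ to 3′ on the + strand, and holds no annotated exon. Capitals mark matches on either strand to the consensus sequences searched. The first 4 are the strongest sites of the group. They are those in intron 2 of Foxo3 (chr10:42251386-42251485) and of Pik3r1 (chr13:101719524-101719623), and a pair downstream of Irs2 (chr8:10914797-10914896 for peak 4 and chr8:10911134-10911233 for peak 3).
Foxo3 peak 8: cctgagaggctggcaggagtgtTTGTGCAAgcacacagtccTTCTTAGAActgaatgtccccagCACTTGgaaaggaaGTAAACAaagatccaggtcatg
Pik3r1 peak 4: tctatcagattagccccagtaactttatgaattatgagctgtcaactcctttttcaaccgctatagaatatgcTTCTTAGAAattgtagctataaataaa
Irs2 peak 4: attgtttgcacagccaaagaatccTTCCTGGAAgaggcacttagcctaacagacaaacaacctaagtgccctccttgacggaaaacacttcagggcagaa
Irs2 peak 3: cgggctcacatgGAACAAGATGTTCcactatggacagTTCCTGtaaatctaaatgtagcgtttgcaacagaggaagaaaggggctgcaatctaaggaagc
In Foxo3 peak 8 the capitals are a C/EBP, a STAT and an NKX2 sequence and, last, a FOXO site. The single match in Pik3r1 peak 4 is to the STAT sequence. Irs2 peak 4 has an ETS and a STAT sequence that overlap, and Irs2 peak 3 has a glucocorticoid response element followed by an ETS sequence.

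A further 4 windows are shown because each holds a FOXO site, TGTTTAC or its reverse complement, and is among the 4 strongest peaks of its gene. The stronger Igf1r peak 9 also holds one, and Igf1r peak 5 is shown in its place for its pair of sites. Insr peak 10 and Irs1 peak 5, at 49.1 and 37.5, meet the same rule and are not shown. An exon is annotated in the window of the former, and Irs1 has only 5 peaks in all. They lie in Igf1 (chr10:87866660-87866759), Igf1r (chr7:67996619-67996718) and Irs1 (chr1:82253231-82253330 for peak 2 and chr1:82253892-82253991 for peak 3).
Igf1 peak 2: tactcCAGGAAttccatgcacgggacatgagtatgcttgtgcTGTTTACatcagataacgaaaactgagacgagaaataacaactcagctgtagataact
Igf1r peak 5: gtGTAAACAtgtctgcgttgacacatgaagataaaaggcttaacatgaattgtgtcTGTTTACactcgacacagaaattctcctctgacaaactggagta
Irs1 peak 2: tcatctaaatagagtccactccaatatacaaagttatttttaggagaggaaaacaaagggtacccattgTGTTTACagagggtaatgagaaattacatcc
Irs1 peak 3: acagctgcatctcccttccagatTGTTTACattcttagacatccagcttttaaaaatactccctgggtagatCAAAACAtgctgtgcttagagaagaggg
Igf1r peak 5 holds 2 FOXO sites, 1 on each strand. Igf1 peak 2 also has an ETS sequence, and Irs1 peak 3 has an insulin response sequence, TGTTTTG, on the opposite strand.

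The last windows hold the other glucocorticoid response elements found at these genes, in Pik3r1 (chr13:101812069-101812168), Irs1 (chr1:82239538-82239637) and Igf1r (chr7:68161563-68161662). The leading peak of Igfbp2 (chr1:72780914-72781013) is added because its TEAD sequence, GGAATG, stands in tandem.
Pik3r1 peak 17: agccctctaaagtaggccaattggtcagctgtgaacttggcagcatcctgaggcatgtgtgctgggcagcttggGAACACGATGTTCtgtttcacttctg
Irs1 peak 1: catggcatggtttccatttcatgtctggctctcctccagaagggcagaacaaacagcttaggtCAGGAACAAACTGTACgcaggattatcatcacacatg
Igf1r peak 29: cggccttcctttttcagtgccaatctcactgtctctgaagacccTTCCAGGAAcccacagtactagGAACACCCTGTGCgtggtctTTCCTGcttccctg
Igfbp2 peak 2: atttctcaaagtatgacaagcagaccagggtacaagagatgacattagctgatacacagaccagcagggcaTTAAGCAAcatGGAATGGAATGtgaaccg
In Irs1 peak 1 the element overlaps an ETS sequence. In Igf1r peak 29 an overlapping STAT and ETS pair precedes the element and a second ETS sequence follows it.

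EP300 peaks were many at these genes and unevenly spread over them. Igf1r had 32 peaks, Irs2 25, Pik3r1 20, Foxo3 14 and Insr 12, while Foxo1 had 7, Igf1 6, Irs1 5, and Igfbp2 and Igfbp3 2 each. The 4 genes with most held 91 of the 125 peaks (72.8%). The mean was 12.5 ± 10.2 peaks per gene (SD over the 10 genes), against 1.97 ± 4.12 over all protein-coding genes by the same rule. At least 1 peak was found at 10 of the 10 genes, against 50.1% of all protein-coding genes, and at least 10 peaks at 5 of the 10, against 4.44%. The 10 genes were chosen with earlier results of these data known, so these comparisons only describe them. The genes also have more sequence in which a peak could be counted. Their territory, the gene body plus the bases within 100 kb that are nearest to the gene's start, had a median of 197 kb, against 53.7 kb over all genes. Per 100 kb of territory the 10 genes together had 6.59 peaks, against 2.17 for all genes together. Irs2 had the most per 100 kb, 12.5, and Igfbp3 the fewest, 1.85. Only 4.56% of all genes were as dense as Irs2, and 37.1% were as dense as Igfbp3. A peak in whole lung does not say whether few cells held EP300 strongly or many held it weakly.

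**Figure D1:**
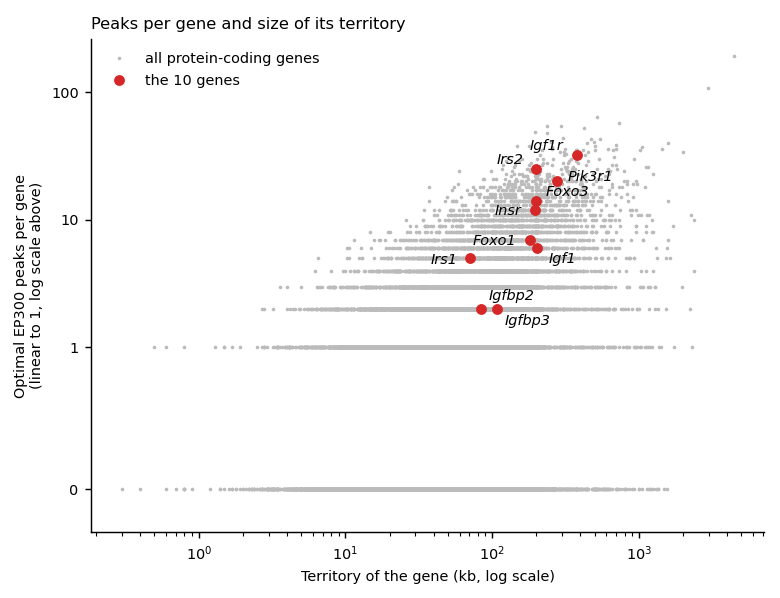
EP300 peaks per gene (vertical axis, linear to 1 and logarithmic above) against the size of the gene's territory in kb (logarithmic axis), for the 10 genes (red) and all protein-coding genes (grey). Igf1r, Irs2 and Pik3r1 stand among the genes with most peaks, with 32, 25 and 20, while Igfbp2 and Igfbp3 have 2 each.

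Most of these peaks were far from a protein-coding start site. In the longest transcript of each gene, introns held 80 of the 125 summits (64.0%), exons 3 (2.40%), and 42 (33.6%) lay outside the gene to which they were assigned. Counted over all protein-coding transcripts, introns held 63.2% and exons 3.20%, against 48.3% and 4.48% of all optimal peaks, where a summit inside one of the 10 genes was counted by the rule itself. The median distance to the nearest protein-coding start was 54.7 kb, against 25.3 kb for all optimal peaks, and 111 summits (88.8%) were over 10 kb from one, against 68.3% of all. A larger territory allows larger distances, and its median was 197 kb at these genes, against 53.7 kb over all genes. How far this accounts for the distances was not tested. For 14 peaks (11.2%) the nearest start was another gene's, and they were counted through the gene body. Promoter peaks, with a summit within 1 kb of a start of the gene, numbered 4 and stood at 3 of the 10 genes, Insr, Pik3r1 and Foxo3. Of all protein-coding genes, 20.5% had one. The count of genes with a promoter peak was 1 in the conservative set, 1 in replicate 2 alone, and 0 among the stronger 50% of the optimal peaks.

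The promoters without an optimal peak differed in the deeper lists, which hold 300000 peaks each. Within 1 kb of a start, the pooled list had a peak of 26.6 at Irs1 (rank 49667), of 25.2 at Igf1 (rank 53189), of 18.7 at Foxo1 (rank 79452) and of 10.1 at Igf1r (rank 286040). The Igf1r site, 904 bp from the start, had no counterpart within 1 kb in the list of replicate 2. At Irs2, Igfbp2 and Igfbp3 no list had a peak within 1 kb of a start. Inside the genes, the second intron held most of the intronic peaks at 5 of the 10 genes. At each of these 5 it was also the longest intron with a peak, from 46.7 kb at Insr to 161 kb at Igf1r. Per 100 kb of that intron there were 21.0 peaks at Pik3r1, 17.1 at Insr, 14.9 at Igf1r, 11.7 at Foxo3 and 10.3 at Igf1. Shorter introns were denser at Pik3r1 (intron 1, 30.2 from 3 peaks), Igf1r (intron 3, 43.6 from 2) and Foxo3 (intron 1, 204 from 2). The other introns with a peak at these 5 genes were less dense than intron 2. The long first intron of Foxo1 had 2.64 per 100 kb and that of Irs1 had 10.2.

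**Figure D2:**
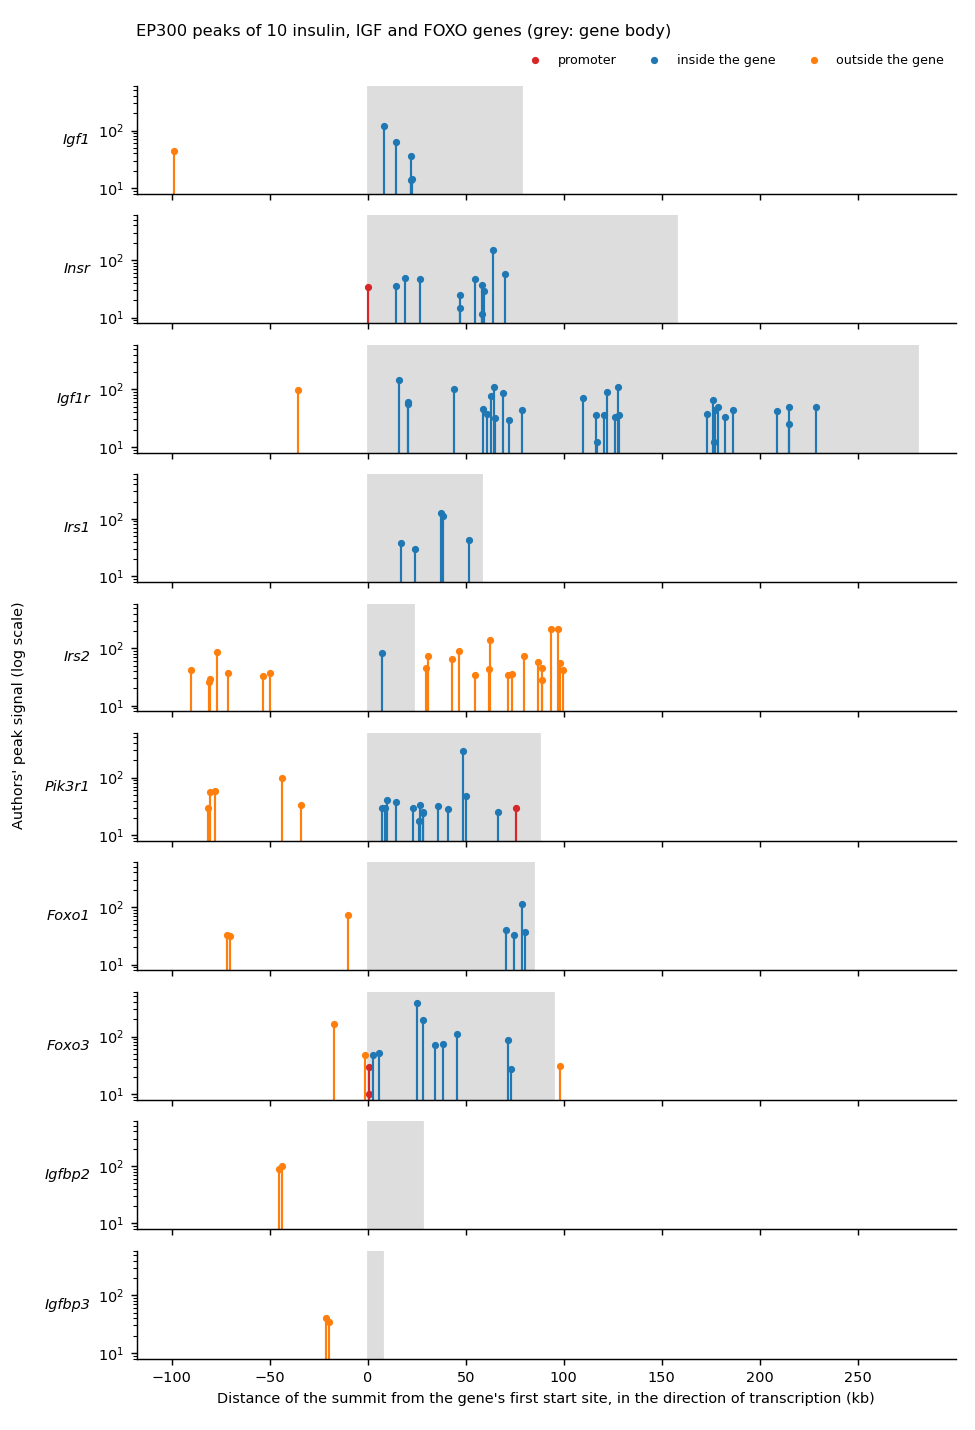
Each EP300 peak of the 10 genes by the distance of its summit from the gene's first start site in kb, in the direction of transcription, with the authors' peak signal on a logarithmic axis. Grey marks the gene body. Red points are promoter peaks, blue points other peaks inside the gene and orange points peaks outside it. The red point inside Pik3r1 stands at the gene's inner start. Peaks of Igf1r run through much of the gene, and those of Irs2 lie mostly outside the gene.

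Igf1, the growth factor, had its strongest peaks shortly after its start. Its 6 peaks were assigned to a gene on chromosome 10, 87858265 to 87937042 on the + strand, and 5 of them lay in intron 2. Igf1 peak 2, at 5.38 kb from the nearest Igf1 start, had a signal of 121 (rank 4347 of the optimal set, where rank 1 is the strongest). The signal is the authors' value for the peak in the pooled list, with no scaling stated, and it serves here to rank and describe peaks. In the libraries' own lists the same site had 62.5 in replicate 1 and 59.3 in replicate 2. Igf1 peak 3, at 11.1 kb, had 62.6 in the pooled list, with 41.5 in replicate 1 and 20.5 in replicate 2. Each of the other 3 intronic peaks overlapped a neighbour, between 18.8 and 19.4 kb, with signals of 13.8, 36.0 and 14.5, and none of them was in the conservative set. The only peak outside the gene lay 99.0 kb upstream, with a signal of 43.7. No optimal peak stood at the Igf1 promoter. Within 1 kb of a start, the strongest peak had 15.7 in replicate 2 (rank 35245) and 9.35 in replicate 1 (rank 105003). All 5 intronic peaks were nearer to the start of the antisense gene Igf1os than to an Igf1 start, and ChIP-seq does not tell the strands apart.

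Insr, the insulin receptor gene on chromosome 8 (3122061 to 3279617, − strand), had 12 peaks, of which 8 lay in intron 2. As many or more peaks were found at 3.05% of all protein-coding genes. The strongest, Insr peak 2 at 63.9 kb from the start, had a signal of 148 (rank 2568), with 92.6 in replicate 1 and 64.3 in replicate 2. It is the site whose centre shows an ETS sequence, CAGGAA, on each strand.
Insr peak 2: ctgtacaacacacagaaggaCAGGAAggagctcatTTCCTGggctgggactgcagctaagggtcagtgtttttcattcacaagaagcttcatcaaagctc
This window lies at chr8:3215683-3215782. The other Insr peaks had signals from 11.7 to 56.9, and 5 of the 12 were among the strongest of both libraries. Its promoter peak had its summit 3 bp upstream of the start, with 34.6 in the pooled list, 22.3 in replicate 1 (rank 30987) and 13.0 in replicate 2 (rank 46470). Insr peak 10, at 19.1 kb in intron 1, held the gene's only FOXO site, with a signal of 49.1. It had 31.8 in replicate 2 and no summit within 100 bp in the list of replicate 1. The antisense gene Gm16180 had the nearest start of any gene type for 11 of the 12 peaks.

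Igf1r, the receptor of IGF1, had the most peaks of the group. Its 32 peaks spread over a gene of 281 kb on chromosome 7 (67952827 to 68233668, + strand), and 43 of all genes (0.197%), Igf1r included, had as many or more. Intron 2, of 161 kb, held 24 of them and intron 1 held 4. Igf1r peak 2 in intron 1 was the strongest, with a signal of 147 (rank 2620), 86.5 in replicate 1 and 59.6 in replicate 2. Igf1r peaks 9 and 20, both in intron 2, had 108 each. Peak 9 had 73.3 in replicate 1 and 35.2 in replicate 2, and peak 20 had 62.6 in replicate 1 and 45.9 in replicate 2. Igf1r peak 5, the site with 2 FOXO sites, had 102 in the pooled list, 54.7 in replicate 1 and 50.5 in replicate 2. The single peak outside the gene lay 35.6 kb upstream with a signal of 96.8, 53.1 in replicate 1 and 42.0 in replicate 2. Deeper in intron 2, Igf1r peak 18 at 122 kb had 91.6, with 51.5 in replicate 1 and 37.9 in replicate 2, and Igf1r peak 23 at 176 kb, which holds a FOXO site, had 64.8, with 38.3 in replicate 1 and 27.6 in replicate 2. The farthest peak, Igf1r peak 32 at 228 kb in intron 5, had 48.9. No one site stood out at Igf1r. The median signal of its peaks was 45.4, and 3 runs of 7 or 8 peaks, each no more than 12.5 kb from the next, ranked 909, 1049 and 2098 of 21120 such runs by summed signal. The last 11 peaks of the gene were nearer to the start of its neighbour Pgpep1l, and others lay over 100 kb from the Igf1r start. With peaks assigned by the nearest start within 100 kb alone, Igf1r had 13.

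The adaptor genes Irs1 and Irs2 differed in where their peaks lay. At Irs1 (chromosome 1, 82233101 to 82291416, − strand) all 5 peaks were in intron 1. Irs1 peak 3 had a signal of 124, with 62.8 in replicate 1 and 59.8 in replicate 2. Irs1 peak 2, less than 1 kb away, had 111, with 58.8 in replicate 1 and 49.5 in replicate 2. Both were similar in the libraries, and each held a FOXO site at its centre. Irs1 peaks 1, 4 and 5 had signals of 42.1, 29.5 and 37.5. For peaks 1, 2 and 3 the nearest start was that of Gm9747, so that Irs1 had 2 peaks by the nearest start alone.

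At Irs2 (chromosome 8, 10984681 to 11008458, − strand) 24 of 25 peaks lay outside the gene, 17 of them downstream and 7 upstream. Irs2 peak 4, 93.6 kb downstream of the start, had a signal of 219 (rank 809), with 109 in replicate 1 and 108 in replicate 2. Irs2 peak 3, at 97.3 kb, had 213 (rank 870), with 126 in replicate 1 and 90.2 in replicate 2, and its centre holds a glucocorticoid response element. Irs2 peak 11, at 62.2 kb, followed with 137, where replicate 1 had 80.9 and replicate 2 had 55.3. The single peak inside the gene, in intron 1, had 81.9. The 17 downstream peaks formed 1 run over 69.5 kb whose summed signal of 1290 ranked 67 of 21120 runs, the highest rank of any run of these genes. On the other side, Irs2 peak 22, 77 kb upstream, had 85.2 and was the strongest of the 7 there, with 35.9 in replicate 1 and 46.1 in replicate 2. The stretch around Irs2 holds noncoding genes, and the nearest start of any gene type was one of theirs for all 24 outside peaks. Irs2 peaks 4, 3 and 11 lay 13.6, 10.6 and 1.68 kb from such a start. Irs2 peak 8, with a signal of 73.4, lay 0.02 kb from one. The count for Irs2 was 5 with a limit of 50 kb and 1 with a limit of 10 kb or with start sites of any gene type.

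Pik3r1, the gene of the regulatory subunits of phosphoinositide 3-kinase, had 20 peaks and 1 dominant site. The gene lies on chromosome 13, 101680563 to 101768217 on the − strand, and its protein-coding transcripts start at 101768217 and, further in, at 101692630. Pik3r1 peak 4, in intron 2 and 26.9 kb upstream of the inner start, had a signal of 292 (rank 276), with 154 in replicate 1 and 140 in replicate 2. The next strongest, Pik3r1 peak 17, lay outside the gene, 43.9 kb upstream of the first start, and holds a glucocorticoid response element. It had 97.5 in the pooled list, 72.2 in replicate 1 and 24.3 in replicate 2, one of the larger gaps between the libraries in this group. The other 18 ranged from 17.7 to 58.6, and the median of all 20 was 31.1, below the 48.5 of all optimal peaks. Its promoter peak stood 88 bp past the inner start, with 29.9 in the pooled list, 21.2 in replicate 1 and 6.91 in replicate 2, where it ranked 145962. Pik3r1 had 14 peaks in replicate 1 alone and 12 in replicate 2 alone.

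Among the FOXO factors, Foxo3 carried the strongest peak of the whole group. The strongest peak of Foxo1 ranked 5242, and none of its peaks was in the strongest 10% of the optimal set. Foxo3 (chromosome 10, 42181841 to 42276755, − strand) had 14 peaks, 9 of them in intron 2. Foxo3 peak 8, 25.3 kb into the gene, had a signal of 383 at rank 80. Replicate 1 gave it 217 (rank 65 in its own list) and replicate 2 gave it 167 (rank 102). Foxo3 peak 7, at 28.3 kb, had 197, with 117 in replicate 1 and 79.6 in replicate 2. These peaks and their neighbours 4 to 6 formed a run of 19.9 kb with a summed signal of 838, ranked 249 of 21120. Foxo3 peak 14, 17.4 kb upstream of the start, had 163, with 111 in replicate 1 and 44.2 in replicate 2. Around the start the values were lower. Both promoter peaks of Foxo3 lay within intron 1, with signals of 29.4 and 10.1. The weaker, Foxo3 peak 12, was the only one of the 125 peaks with no summit within 100 bp in the list of either library.

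At Foxo1 (chromosome 3, 52268336 to 52353221, + strand) the 7 peaks fell into 3 places. Foxo1 peak 6, the strongest at 111, lay 78.8 kb into the gene in the untranslated part of exon 3, with 62.6 in replicate 1 and 48.3 in replicate 2. Foxo1 peaks 4, 5 and 7 nearby had 40.7, 33.3 and 36.6. Upstream, Foxo1 peak 3 lay at 10.2 kb with 72.7, where replicate 1 had 50.6 and replicate 2 had 21, and peaks 1 and 2 lay 71.7 and 70.2 kb upstream with 33.1 and 31.4. The first part of intron 1, of 75.6 kb, had no optimal peak before peak 4 at 70.7 kb. Foxo1 had 4 peaks in replicate 1 alone and 9 in replicate 2 alone.

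The genes of the binding proteins, Igfbp2 (chromosome 1, 72824503 to 72852474, + strand) and Igfbp3 (chromosome 11, 7206086 to 7213923, − strand), had 2 peaks each, all upstream, a number that 33.0% of all genes reached. The pair at Igfbp2 lay 45.5 and 43.5 kb before the start. Igfbp2 peak 1 had a signal of 88.5, with 45.9 in replicate 1 and 43.3 in replicate 2. Igfbp2 peak 2 had 101, with 57.3 in replicate 1 and 42.0 in replicate 2. Both centres hold a TEAD sequence. The pair at Igfbp3 lay closer, 19.6 and 21.5 kb upstream, and was weaker. Igfbp3 peak 1 had 34.1, with 23.0 in replicate 1 and 9.02 in replicate 2, and Igfbp3 peak 2 had 40.4, with 24.4 in replicate 1 and 16.0 in replicate 2. With a limit of 10 kb neither gene had a peak. The genes next to them, Igfbp5 beside Igfbp2 and Igfbp1 beside Igfbp3, had 1 and 2 peaks of their own, with strongest signals of 31.7 and 115.

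The strongest peak of each of the 10 genes was among the strongest of both libraries, and many weaker peaks were not. Of the 125 peaks, 66 (52.8%) were matched, by summits no more than 100 bp apart, among the strongest 43988 peaks of each library, against 63.0% of all optimal peaks. Counted over the whole lists of 300000 peaks, 106 (84.8%) had a partner in both, against 85.9%. The conservative set held 95 at the same coordinates (76.0%), against 80.1% of all optimal peaks, and 31 (24.8%) overlapped another optimal peak, against 20.0%. By gene, 10 of the 14 peaks of Foxo3 and 16 of the 25 of Irs2 were among the strongest of both libraries, against 5 of the 20 of Pik3r1 and 2 of the 7 of Foxo1. The median signal of the 125 was 42.1, against 48.5 for all optimal peaks, with a range from 10.1 to 383. Only 11 (8.80%) were in the strongest 10% of the optimal set.

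Between the libraries, signals were higher in replicate 1, by a median of 0.38 on the log2 scale over all shared peaks. With that shift removed, the median log2 ratio of replicate 1 over replicate 2 was -0.04 for the 66 shared peaks of these genes, and the range was -0.92 to 1.21. Of the 66, 64 (97.0%) were within 2-fold of each other, against 97.2% of all shared peaks. Beyond 2-fold were Igf1r peak 14, at 1.21, with 51.2 in replicate 1 and 17.0 in replicate 2, and Pik3r1 peak 17, at 1.19. These 66 were chosen for being strong in both libraries, which favours like values. Over the 106 peaks matched in the whole lists, 96 (90.6%) were within 2-fold, against 89.3% of all optimal peaks so matched, and the range was -2.05 to 1.5. The lowest was Irs2 peak 21, with 9.10 in replicate 1 and 28.9 in replicate 2. The highest was Igf1r peak 22, with 26.7 in replicate 1 and 7.27 in replicate 2. Igf1 peak 5, at -1.44, and Insr peak 4, at 1.42, followed.

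**Figure D3:**
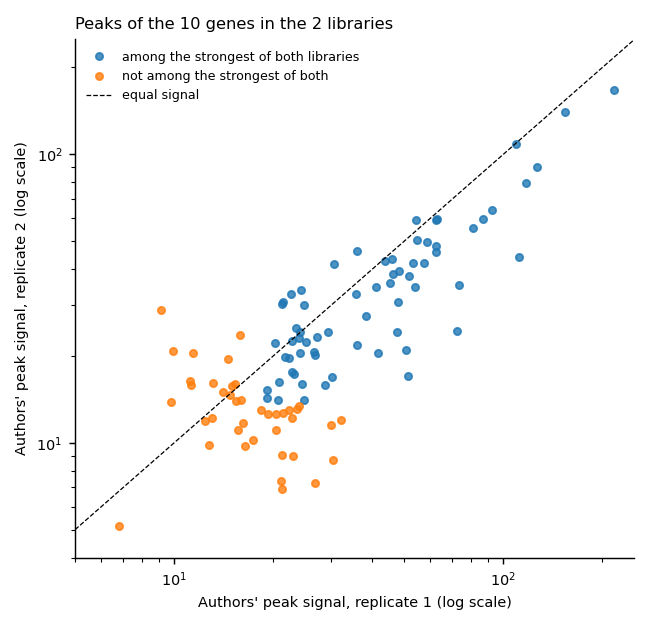
The authors' signal of each peak of the 10 genes in the list of replicate 1 (horizontal) and of replicate 2 (vertical), both on logarithmic axes, for the 106 peaks with a summit within 100 bp in both lists. Blue points are the 66 peaks among the strongest of both libraries, orange points the others, and the dashed line is equal signal. Foxo3 peak 8, at 217 and 167, is the highest in both.

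FOXO sites stood under 12 of the 125 summits (9.60%), against 5.35% of all optimal peaks. They were found at Igf1 (1 peak), Insr (1), Igf1r (3), Irs1 (3), Irs2 (3) and Foxo3 (1), and under no summit of Pik3r1, Foxo1, Igfbp2 or Igfbp3. At Irs1, 3 of 5 peaks held one. The Foxo3 site is the one in its strongest peak, shown above. Peaks of 1 gene are neighbours and not replicates. The same 7 letters are bound by other forkhead factors of the lung, and a match is not a measured binding site. The related sequence TATTTAC was found under 3 further summits (2.40%), against 2.70% of all, and the insulin response sequence TGTTTTG under 7 (5.60%), against 3.66% of all. With the whole peak searched in place of its central 100 bp, 22 of the 125 (17.6%) held a FOXO site, against 12.4% of all optimal peaks searched so.

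Glucocorticoid response elements, the sequence bound by the receptor of the stress and maturation hormone corticosterone, were found under 4 summits (3.20%), against 2.17% of all optimal peaks. They stood 1 each at Irs2, Pik3r1, Irs1 and Igf1r, and the strongest of these peaks was Irs2 peak 3. With the short core ACANNNTGT the count was 8 (6.40%), against 7.08%. The full element was found in 2 peaks among the stronger 50% of the optimal set, in 2 in replicate 2 alone, and in 2 with peaks counted by the gene body only.

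Other sequences were searched in the same windows, on both strands. TEAD (GGAATG) was found under 21 summits (16.8%), against 11.7%, ETS (CAGGAA) under 32 (25.6%), against 24.3%, and C/EBP (TTGCNNAA) under 15 (12.0%), against 8.70%. STAT (TTCNNNGAA) was found under 11 (8.80%), against 6.03%, and NKX2 (CAAGTG), the sequence of the lung factor NKX2-1, under 14 (11.2%), against 9.28%. AP-1 (TGANTCA) was found under 4 (3.20%), against 7.67%, and CREB (TGACGTCA) under 1 (0.800%), against 0.403%. A STAT and an ETS match can share letters, as in Irs2 peak 4, and are then counted under both names.

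**Figure D4:**
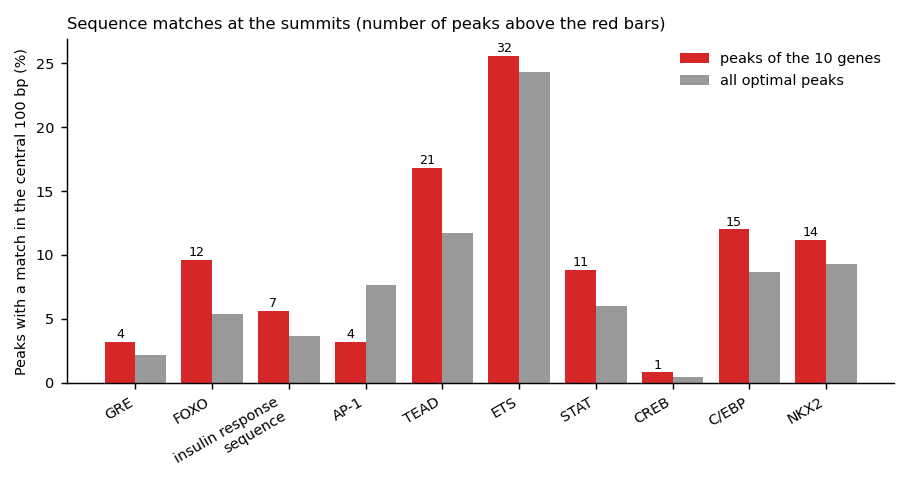
Share of peaks with a match in the central 100 bp, in percent, for the 125 peaks of the 10 genes (red, with the number of peaks above each bar) and all optimal peaks (grey), for 10 consensus sequences. The red bar is the higher for each of them except AP-1, where it stands at 3.20%, against 7.67%. The short core ACANNNTGT and TATTTAC are not drawn. Their shares were lower at the 10 genes, 6.40% against 7.08% and 2.40% against 2.70%.

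Beyond the 10 genes, 74 other genes of the pathway were looked up by the same rule, of which 57 had at least 1 peak and 12 had at least 10, with a median of 2.5 peaks. A promoter peak, counted at every gene with a start within 1 kb of the summit, stood at 34. Of these, Tsc2 had no peak by the nearest start, since another gene's start was nearer. Over all protein-coding genes the shares were 50.1%, 4.44% and 20.5%, and the median was 1. The list of other pathway genes was also chosen with earlier results of these data known, and the territories of these genes were not compared with those of all genes. Among the inhibitors of the receptors, 3 of 6 genes had at least 10 peaks. Ptpn1, the tyrosine phosphatase that removes phosphate from the insulin receptor, had 38, with a strongest signal of 379, and only 0.0916% of all genes had as many. Socs3, a cytokine-induced inhibitor of receptor signalling, had 14 (strongest 135). Of the downstream kinases, 10 of 12 had a peak. Sgk1, a kinase that phosphorylates FOXO factors as AKT does and is induced by glucocorticoids, had 19 (strongest 306), and Rptor, a subunit of the mTOR complex that senses nutrients, had 11 (strongest 85.5).

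Igf2r, the receptor that clears IGF2, had 18 peaks (strongest 127), while Insrr had 0. Of the other ligands, Ins2 had 2 and Igf2 and Ins1 had 0. Among the binding proteins, Igfbp7 had 11 (strongest 97.9) and Igfbp4 had 5 (strongest 83.3). The adaptor genes Gab1 and Dok1 had 16 and 4, with strongest signals of 131 and 94.0. For phosphoinositide 3-kinase, the catalytic subunit genes Pik3cb and Pik3ca had 8 and 3 (strongest 194 and 204). In this group 5 of 6 genes had a promoter peak, against 20.5% of all protein-coding genes. The phosphatase genes Phlpp1 and Inpp5d had 10 and 7 (strongest 68.4 and 241). Of the other FOXO factors, Foxo6 had 1 peak and Foxo4 had 0. Known FOXO targets of other tissues had peaks at 15 of 18 genes, against 50.1% of all protein-coding genes. Pck1, Fbxo32 and Trim63 had 0, and G6pc had 1. Klf15, a transcription factor of fasting metabolism, had 11 (strongest 243), and Txnip, an inhibitor of thioredoxin and glucose uptake, had 10 (strongest 341).

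As a check of the tissue, 9 of 10 lung marker genes had a peak, against 50.1% of all protein-coding genes. Sftpb and Hopx, expressed in alveolar epithelium, had 18 each, and the endothelial genes Pecam1, Kdr and Tek had 16, 15 and 14. Counts were lower at Nkx2-1 (7), Sftpc (5), Col1a1 (3) and Ager (2), and Foxj1 of ciliated cells had 0. Of 4 markers of other organs, Alb, Myh6 and Ckm had 0 and Neurod1 had 4, more than Col1a1 or Ager.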

How the data were processed

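EP300 ChIP-seq peaks of newborn mouse lung were taken as the authors deposited them. Per the deposited notes, reads were aligned to mm10 and peaks were called on each library and on both pooled, each list also using 1 further file that the notes do not name. Conservative (42473 peaks) and optimal (43988) sets were then made by the irreproducible discovery rate. No source used here gives the aligner, the peak caller or a version of either. A possible control experiment named in the labels was not analysed here. Signal is the value the authors deposited for each peak, with no scaling stated. The lists hold no read counts, so depth is unknown and no interval is given.

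Peaks on the 21 chromosomes (43972, leaving out 16) were assigned with the basic set of GENCODE vM21 by the rule in the opening. The libraries alone were represented by their strongest 43988 peaks. Sequences are RefSeq's GRCm38.p6. Runs joined summits no more than 12.5 kb apart. All 10 members were named, and in each role group of other pathway genes the 2 with most peaks, ties going to the stronger peak. The members and lists were chosen with earlier results of these data known. Other sets, distances, windows and single libraries were tried as alternatives. Code was tested on simulated data. Python 3.11.15, numpy 2.4.6, pandas 2.3.3, pysam 0.24.0 and matplotlib 3.10.9 were used.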

Additional observations from a re-analysis of the deposited data

How the results depend on the processing

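Of 65 alternative values of the main counts, 53 lay within 1.5 times the count reported, and of 110 for single genes, 87. The 10 genes had 125 peaks, against 49 among the stronger 50% of the optimal set, 83 with summits inside the gene only, and 109 in each library alone. Genes with a promoter peak were 3, against 1 in the conservative set, 0 among the stronger 50%, and 1 to 3 in single libraries. The 1 in replicate 2 alone was Igf1, which is not among the 3. Peaks with a glucocorticoid response element were 4, against 2 among the stronger 50%, 2 with a limit of 10 kb, 2 by the nearest start alone, 2 inside the gene only, 2 to 4 in single libraries, 5 in the conservative set, 5 in the central 200 bp and 6 in the whole peak. Peaks with a FOXO site were 12, against 22 in the whole peak, a wider window, and 10 to 12 in single libraries. Peaks seen in both libraries were 66, against 106 in the whole lists, which are longer. Genes with at least 1 peak stayed between 8 and 10 of 10 in these alternatives. Leaving out peaks beyond rank 100000 of the pooled list, chosen after seeing the data, removed 7 of the 125. No paired analysis was possible because the libraries form 1 group. Depth is unknown, so an absent peak is only a peak not listed.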
